A study of Homo sapiens with 4 samples.

Results

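The genes described here drive cells from the end of DNA replication through mitosis: the cyclins and kinases that start division, the spindle and its motors, the kinetochores that tie chromosomes to the spindle, and the machinery that splits the cell. They were a list of 55 gene symbols, matched by symbol to the rows of the deposited table that carry an Ensembl gene identifier. All 55 had exactly 1 such row among 53777 rows with an identifier, and all 55 passed the filter on low values. RNA sequencing was run on NUGC3, an established line of human gastric cancer cells, that had been transfected with short hairpins against NIPBL or with a scramble control. The NIPBL knockdown group held 2 libraries, 1 with hairpin 1 and 1 with hairpin 7, and the scramble group held 2 libraries. All 4 labels contain the letters DOX, which they do not explain. Scramble 2 carries the same label as scramble 1 plus a suffix that could stand for a repeat. Separate cultures are not stated for either group, so a p-value here reflects the spread among 4 libraries and may be technical. Neither the vector of the hairpins nor the time of harvest was stated in the labels.

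As background, most of these genes are transcribed in a burst late in the cell cycle, after the genes for DNA replication. In resting and early G1 cells the DREAM complex represses them, and later the transcription factors B-MYB and FOXM1, with the MuvB core and NF-Y, activate them. MuvB contacts a short promoter element called the CHR (cell cycle genes homology region), which lies near the transcription start, and NF-Y binds CCAAT boxes upstream of it. NIPBL, the gene knocked down, loads the cohesin ring onto chromosomes. Cohesin holds sister chromatids together until separase, one of the genes in the list, cuts it at anaphase.

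The promoters of some genes, chosen as described below, are shown first. Most promoters found for the list held both CHR and CCAAT letters. RefSeq windows of 250 bases before to 50 bases after the annotated start (build GRCh38.p14) were found for 45 of the 55 genes. AURKA, BIRC5, BUB3, TTK, UBE2C, CENPH, CENPM, TPX2, RACGAP1 and FOXM1 had no entry. The CHR was searched as TTTGAA or TTCGAA and the CCAAT box as CCAAT, on both strands, with overlapping matches each counted. The sequences run from 170 bases before to 30 bases after the start, 5′ to 3′ on the strand of the gene, with CHR and CCAAT letters in capitals. On the opposite strand TTTGAA reads TTCAAA and CCAAT reads ATTGG. KIF14 is shown as the single gene that passed the test. NUSAP1 and CCNA2 are the genes with an entry that had the next smallest p-values. CDC20 and PTTG1 differed most between the hairpins with hairpin 7 the lower, and CDK1 and ANLN with hairpin 1 the lower.
KIF14 (chr1:200620722-200620921, minus strand): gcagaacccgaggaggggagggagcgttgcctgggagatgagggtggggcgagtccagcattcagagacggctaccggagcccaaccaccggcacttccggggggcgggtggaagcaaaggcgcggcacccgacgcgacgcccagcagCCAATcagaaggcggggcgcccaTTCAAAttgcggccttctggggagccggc
NUSAP1 (chr15:41332711-41332910, plus strand): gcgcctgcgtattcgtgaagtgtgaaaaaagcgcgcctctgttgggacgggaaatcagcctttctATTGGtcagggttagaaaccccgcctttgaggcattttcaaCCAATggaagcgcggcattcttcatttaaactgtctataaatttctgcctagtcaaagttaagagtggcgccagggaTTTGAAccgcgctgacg
CCNA2 (chr4:121823854-121824053, minus strand): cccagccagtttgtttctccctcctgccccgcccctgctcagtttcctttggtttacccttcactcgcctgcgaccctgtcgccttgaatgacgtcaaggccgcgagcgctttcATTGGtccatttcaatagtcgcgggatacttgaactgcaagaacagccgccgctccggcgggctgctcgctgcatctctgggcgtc
CDC20 (chr1:43358811-43359010, plus strand): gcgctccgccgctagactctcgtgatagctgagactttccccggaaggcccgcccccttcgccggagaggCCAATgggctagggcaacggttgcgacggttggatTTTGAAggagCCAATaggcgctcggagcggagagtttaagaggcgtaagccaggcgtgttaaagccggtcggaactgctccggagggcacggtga
PTTG1 (chr5:160421685-160421884, plus strand): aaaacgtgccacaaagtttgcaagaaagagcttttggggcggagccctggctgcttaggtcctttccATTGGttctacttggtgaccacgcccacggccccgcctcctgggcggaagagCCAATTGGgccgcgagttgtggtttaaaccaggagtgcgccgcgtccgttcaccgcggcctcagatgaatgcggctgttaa
CDK1 (chr10:60778161-60778360, plus strand): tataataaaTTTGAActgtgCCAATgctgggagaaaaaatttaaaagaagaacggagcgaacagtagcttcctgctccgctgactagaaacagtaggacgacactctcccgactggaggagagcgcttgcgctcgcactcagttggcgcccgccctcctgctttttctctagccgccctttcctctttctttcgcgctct
ANLN (chr7:36389692-36389891, plus strand): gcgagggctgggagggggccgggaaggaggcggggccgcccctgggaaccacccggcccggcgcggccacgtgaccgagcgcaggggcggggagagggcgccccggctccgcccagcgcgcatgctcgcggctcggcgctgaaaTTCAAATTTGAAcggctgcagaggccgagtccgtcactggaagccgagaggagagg

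The KIF14 window holds a CCAAT box just upstream of the start site and a CHR at it. ANLN carries a pair of adjoining CHR matches, 1 on each strand, and no CCAAT box in its whole window. CCNA2 and PTTG1 have CCAAT boxes and no match to the CHR letters as searched. Of the 45 promoters, 33 (73.3%) held a CHR as searched, 35 (77.8%) a CCAAT box and 28 (62.2%) both. Among all 35116 promoters of the table, not reduced to 1 per gene, 16.4% held a CHR, 34.6% a CCAAT box and 6.38% both. Among 15843 protein-coding genes with 1 promoter each, as in the list, the shares were 13.5%, 36.4% and 5.57%. A list of DNA replication genes, which peak earlier in the cycle, had 43 promoters in the table, of which 6.98% held a CHR, 58.1% a CCAAT box and 4.65% both. In the promoters of the mitotic genes the CHR matches lay at a median of -23 bases from the start, where negative positions are upstream, and the CCAAT matches at -73 bases. Over all promoters those medians were -125 and -96 bases. Letter matches describe these windows and do not show that a factor binds there.

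**Figure D1:**
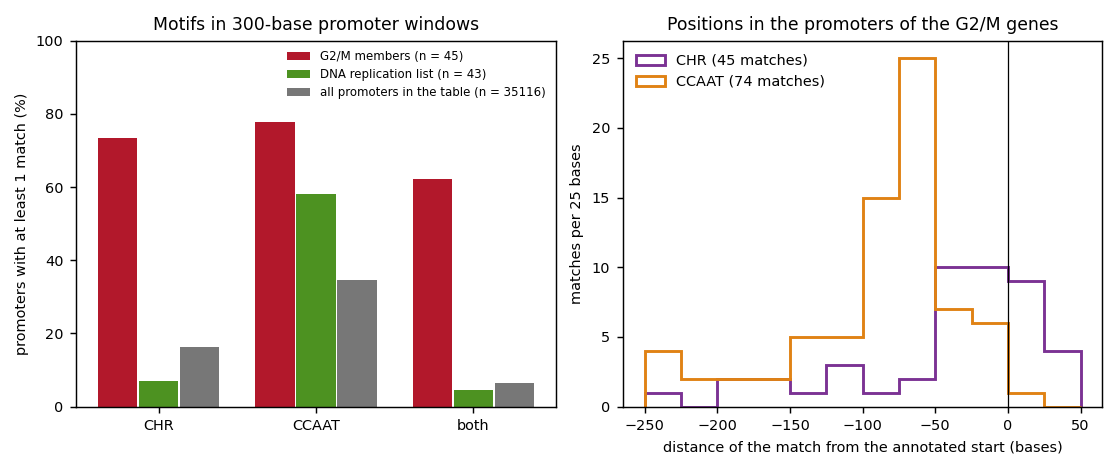
Left, share of promoter windows (y axis, %) with at least 1 CHR, CCAAT box or both, for the mitotic genes (called G2/M members in the legend), a DNA replication list and all promoters of the table. Right, matches per 25 bases against distance from the annotated start in bases for the mitotic genes. The CHR bar stands at 73.3% for the mitotic genes, 6.98% for the replication list and 16.4% for all promoters.

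The libraries as a whole gave the following frame. NIPBL itself was at 7.27 FPKM with hairpin 1 and 9.17 FPKM with hairpin 7, against 23.9 and 23.1 FPKM in the scramble libraries, where FPKM is read abundance per transcript length and library size as made by the authors. Its knockdown mean was 35.0% of scramble (log2 change -1.42 ± 0.14, SE, limma, adjusted p = 0.0218). All log2 changes subtract scramble from knockdown after log2(FPKM + 1), a scale that understates the changes of low genes. Summed FPKM lay between 682076 and 749446 per library. FPKM holds no read number, so the depth is unknown and no counting intervals are given. The 6 epithelial markers (EPCAM, KRT8, KRT18, KRT19, CDH1 and CLDN4) were all present and summed to between 4213.85 and 5143.97 FPKM in knockdown and between 5124.78 and 5181.38 FPKM in scramble libraries. They did not move together. EPCAM, KRT8 and KRT18 were below both scramble libraries with both hairpins, and KRT19, CDH1 and CLDN4 were above both. Of the leukocyte markers PTPRC was listed at 0 in all 4 libraries, and CD3E and CD14 stayed at or under 0.9 FPKM. The sum of the leukocyte markers, nearly all of it CD68, was 32.5 to 38.0 FPKM in knockdown and 13.3 to 17.7 FPKM in scramble libraries. The 4 fibroblast markers, mostly COL1A1, summed to between 7.39 and 9.41 FPKM in knockdown and 5.82 and 6.65 FPKM in scramble libraries, with COL3A1 listed at 0 in all 4. Both endothelial markers with a row stayed at or under 0.96 FPKM in sum. The part of these markers in the results was not tested.

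The mitotic genes were lower in the knockdown libraries almost without exception, by a modest amount. Their summed FPKM was 3123 with hairpin 1 and 2982 with hairpin 7, against 3981 and 4014 in the scramble libraries. That is 0.456% and 0.482% of the FPKM of all rows with a gene identifier in knockdown libraries, against 0.588% and 0.600% in scramble libraries. The median gene of the list stood at 75.6% of its scramble mean, with a median log2 change of -0.38, against -0.01 over the 12834 genes tested. The kinesin gene KIF14 was the 1 gene of the 55 that fell in the test over all genes (limma, adjusted p under 0.05), beside 1.11% of all genes tested that fell and 2.56% that passed in either direction. None rose, beside 1.45% of all genes. At an unadjusted p under 0.05 (limma), 39 of the 55 were lower, beside 12.8% of all genes, and 0 were higher, beside 13.6% of all genes. Both knockdown libraries lay below both scramble libraries for 51 of the 55 genes, beside 30.8% of all genes. The log2 change was negative for 54 of 55, beside 51.7% of all genes. SPC24 was the exception. RNA from whole cultures cannot tell fewer cells in G2 and mitosis from less of these transcripts per cell.
The changes of the list lay mostly below what the test could call. The smallest absolute log2 change of any gene that passed was 0.58, while the list reached -0.69, in CDC20. Standard errors of the list lay between 0.09 and 0.26. Without scramble 1 or without scramble 2 limma called 0 of the 55 (4 and 3 lower at an unadjusted p under 0.05). Without hairpin 1 it called 45 of them and 4532 genes in all, and without hairpin 7 it called 40 and 2915, where the lone library is assumed to vary like the other group.

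**Figure D2:**
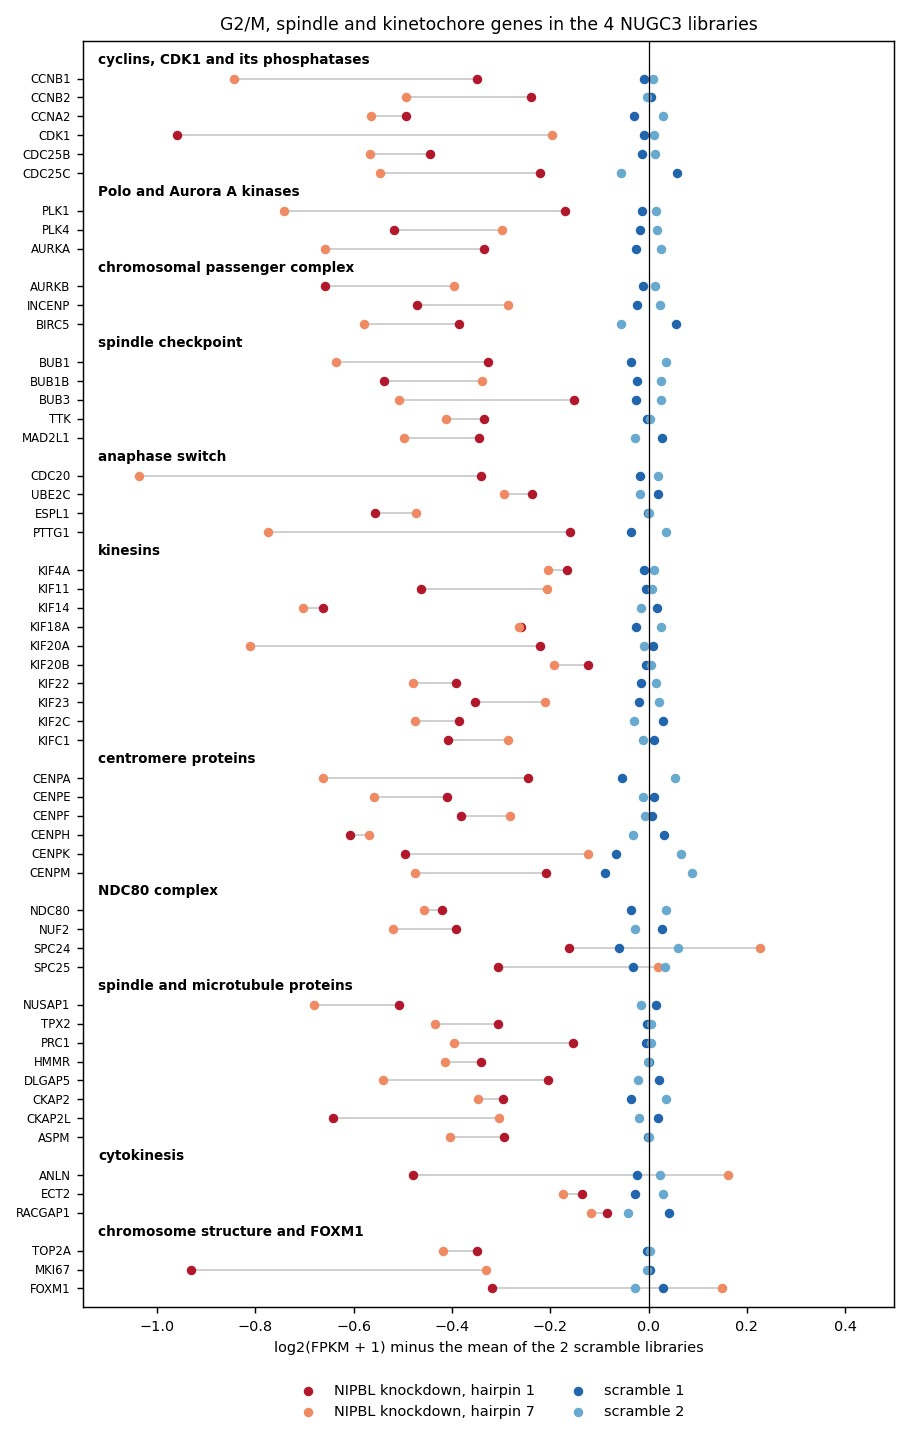
Each row is a gene, grouped by role, and each dot is 1 library, as log2(FPKM + 1) minus the mean of both scramble libraries (x axis). The scramble libraries lie close to 0 in all rows, and for 51 of 55 genes both hairpin libraries lie to their left. SPC24, SPC25, ANLN and FOXM1 have hairpin 7 to the right of 0.

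**Figure D3:**
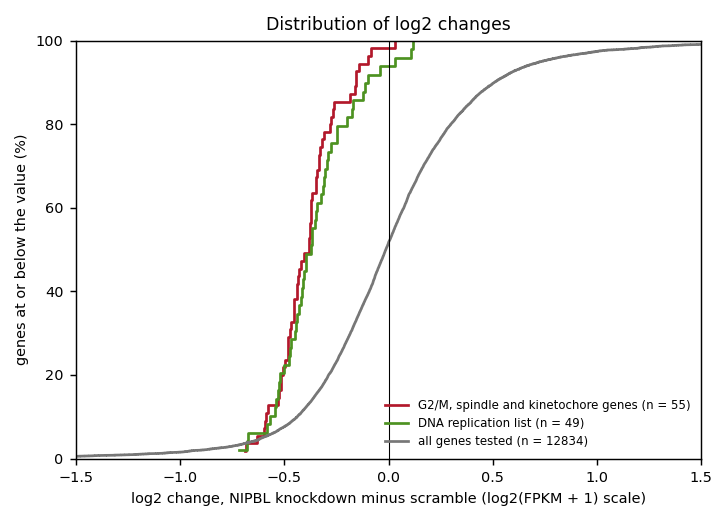
Cumulative share of genes (y axis, %) at or below each log2 change (x axis, knockdown minus scramble) for the mitotic genes, the DNA replication list and all genes tested. The median is -0.38 for the mitotic genes, -0.37 for the replication list and -0.01 for all genes.

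The scramble libraries repeated each other closely for these genes. The median absolute log2 difference between them was 0.039 over the list and 0.075 over all genes tested, and the largest in the list was 0.18, in CENPM. The mitotic genes were also well expressed. Their scramble means ran from 13.7 FPKM for PLK4 to 300.5 FPKM for UBE2C, with a median of 55.4 FPKM, and the median gene of the list stood at percentile 85.9 of all genes tested. No gene of the list was below percentile 51.9.

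Mitosis begins when cyclins activate CDK1, and the CDC25 phosphatases remove the inhibitory phosphates from it. All 6 genes of this step had both knockdown libraries below both scramble libraries, beside 30.8% of all genes tested. Of the 6, 5 were lower at an unadjusted p under 0.05 (limma), beside 12.8% of all genes. Their median log2 change was -0.52 over all 6. CCNA2, the cyclin of S phase and G2, was at 43.4 FPKM with hairpin 1 and 41.3 FPKM with hairpin 7, against 60.2 and 62.8 FPKM in the scramble libraries (log2 change -0.53 ± 0.09, SE, limma, adjusted p = 0.0611). The phosphatase gene CDC25B was at 51.4 and 47.2 FPKM in knockdown and 69.7 and 71.0 FPKM in scramble libraries. CCNB1, the main mitotic cyclin, was at 161 FPKM with hairpin 1 and 114 FPKM with hairpin 7, against 203 and 206 FPKM in the scramble libraries. The hairpins gave CCNA2 and CDC25B nearly the same level, while hairpin 7 left CCNB1 well below hairpin 1. The adjusted p was 0.0673 for CDC25B and 0.133 for CCNB1 (limma). CDK1 itself showed the reverse order, with 46.6 FPKM under hairpin 1 and 79.7 FPKM under hairpin 7, against 90.9 and 92.2 FPKM in the scramble libraries. The means of CDK1 were 63.2 ± 23.4 FPKM in knockdown and 91.5 ± 0.926 FPKM in scramble libraries (SD, n = 2 each), and CDK1 did not pass (limma, adjusted p = 0.236). CCNB2, a further B-type cyclin, was at 61.7 and 51.5 FPKM in knockdown and 73.2 and 72.8 FPKM in scramble libraries. CDC25C, a further phosphatase, was at 13.2 and 10.4 FPKM in knockdown and 16.3 and 14.9 FPKM in scramble libraries. Both were lowest with hairpin 7, like CCNB1.

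**Figure D4:**
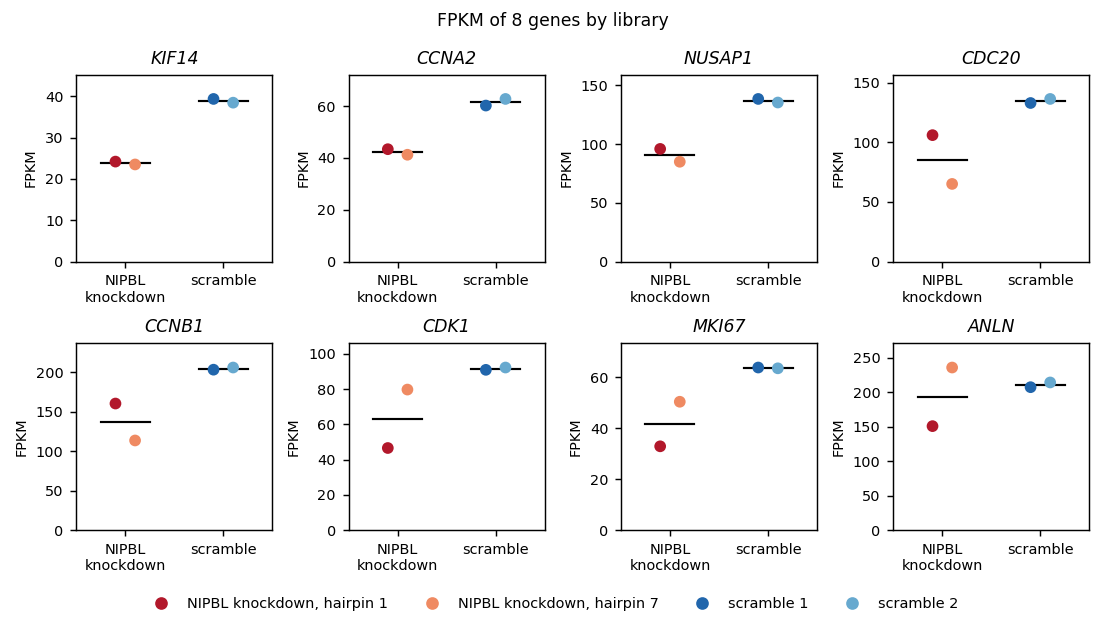
FPKM (y axis, from 0) of 8 genes, with 1 dot per library and a bar at the mean of each group of 2. KIF14, CCNA2 and NUSAP1 have both hairpins close together below scramble. CDC20 and CCNB1 are lowest with hairpin 7, CDK1 and MKI67 are lowest with hairpin 1, and ANLN has scramble between the hairpins.

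Polo and Aurora kinases build the spindle poles and steer chromosome attachment. AURKA, the spindle pole Aurora kinase, was at 119 and 94.9 FPKM in knockdown and 148 and 153 FPKM in scramble libraries (log2 change -0.50 ± 0.14, SE, limma, adjusted p = 0.113). PLK4, which starts centriole duplication, was at 9.27 and 10.95 FPKM in knockdown and 13.5 and 13.9 FPKM in scramble libraries. PLK1, needed for mitotic entry and spindle poles, was at 54.3 FPKM with hairpin 1 and 36.2 FPKM with hairpin 7, against 60.6 and 61.9 FPKM in the scramble libraries. Both knockdown libraries lay below both scramble libraries for these 3 genes, beside 30.8% of all genes. PLK1 with hairpin 1 was at 88.7% of scramble and with hairpin 7 at 59.1%. The chromosomal passenger complex corrects faulty attachments and directs cytokinesis. Its kinase gene AURKB was at 48.6 and 58.5 FPKM in knockdown and 76.6 and 78.0 FPKM in scramble libraries (log2 change -0.53 ± 0.12, SE, limma, adjusted p = 0.0888). The survivin gene BIRC5 was at 63.0 and 54.9 FPKM in knockdown, against 85.9 and 79.4 FPKM in scramble libraries. INCENP, the scaffold, was at 33.3 and 38.1 FPKM in knockdown, against 45.8 and 47.4 FPKM in scramble libraries. The 3 genes of this complex stood between 69.3% and 76.6% of scramble, and the adjusted p of BIRC5 and INCENP was 0.0906 and 0.118 (limma).

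The spindle checkpoint holds anaphase back until every kinetochore is attached. Its 5 genes were lower than both scramble libraries with both hairpins, beside 30.8% of all genes. MAD2L1, the MAD2 subunit that inhibits CDC20, was at 54.5 and 48.9 FPKM in knockdown and 70.8 and 68.1 FPKM in scramble libraries (log2 change -0.42 ± 0.10, SE, limma, adjusted p = 0.0922). TTK, the kinase that recruits the checkpoint proteins, was at 35.2 and 33.3 FPKM in knockdown and 44.5 and 44.8 FPKM in scramble libraries. BUB1B, which encodes the checkpoint subunit BUBR1, was at 35.6 and 41.05 FPKM in knockdown and 51.3 and 53.1 FPKM in scramble libraries. Neither group overlapped the other for TTK or BUB1B, with adjusted p of 0.0948 and 0.097 (limma). BUB1, the kinase of the outer kinetochore, was at 54.1 and 43.4 FPKM in knockdown and 66.4 and 69.8 FPKM in scramble libraries. BUB3, which docks BUB1 and BUBR1, was at 105 and 82.2 FPKM in knockdown and 115 and 119 FPKM in scramble libraries. Both were lowest with hairpin 7, and neither passed. Once the checkpoint is satisfied, CDC20 and UBE2C, which work with the anaphase-promoting complex, lead to destruction of securin (PTTG1) and release of separase (ESPL1). ESPL1 was at 11.3 and 12.1 FPKM in knockdown and 17.1 and 17.2 FPKM in scramble libraries (log2 change -0.52 ± 0.10, SE, limma, adjusted p = 0.0718). CDC20 was at 106 FPKM with hairpin 1 and 65.1 FPKM with hairpin 7, against 133 and 136 FPKM in the scramble libraries (log2 change -0.69 ± 0.24, SE, limma, adjusted p = 0.162). UBE2C, the most abundant transcript of the list per length, was at 255 and 245 FPKM in knockdown and 304 and 297 FPKM in scramble libraries. The hairpins nearly coincided for ESPL1 and UBE2C and stood far apart for CDC20. PTTG1 was at 173 FPKM with hairpin 1 and 113 FPKM with hairpin 7, against 189 and 199 FPKM in the scramble libraries (limma, adjusted p = 0.25). PTTG2, a near copy of PTTG1, was listed at 0 in all libraries but scramble 1, where it had 0.34 FPKM.

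Kinesins are microtubule motors that separate spindle poles, move chromosomes and organise the midzone. KIF14 (ENSG00000118193, chr1:200551497-200620734 in GENCODE 29), a motor of the midzone and of cytokinesis, was at 24.2 FPKM with hairpin 1 and 23.5 FPKM with hairpin 7, against 39.3 and 38.4 FPKM in the scramble libraries. It fell to 61.3% of scramble, with means of 23.8 ± 0.488 FPKM in knockdown and 38.9 ± 0.636 FPKM in scramble libraries (SD, n = 2 each). The log2 change was -0.68 with an SE of 0.09 (limma, adjusted p = 0.0414). The call of KIF14 was lost with the values rescaled to a common sum (adjusted p = 0.0602), without the mean trend (0.0649), with the scramble libraries averaged (0.551), without scramble 1 (0.519) and without scramble 2 (0.514; limma throughout), over a range of 0.000551 to 0.551 in all alternatives. KIF22, a chromosome arm motor, was at 42.0 and 39.5 FPKM in knockdown and 54.9 and 56.0 FPKM in scramble libraries (limma, adjusted p = 0.079). KIF2C, which takes microtubules apart at kinetochores, was at 52.0 and 48.9 FPKM in knockdown and 69.7 and 66.9 FPKM in scramble libraries (limma, adjusted p = 0.0819). Both had every knockdown value below every scramble value, with the hairpins close together. The 10 kinesin genes all lay below both scramble libraries with both hairpins, at 61.3% to 89.2% of scramble, beside 30.8% of all genes. Of the 10, 7 were lower at an unadjusted p under 0.05 (limma), beside 12.8% of all genes. KIF4A, whose near copy KIF4B was listed at no more than 0.04 FPKM, and KIF20B were the least lowered, at 87.5% and 89.2%. KIF20A, a motor of cytokinesis, was at 32.3 FPKM with hairpin 1 and 21.1 FPKM with hairpin 7, against 38.0 and 37.5 FPKM in the scramble libraries. KIF11, the motor that pushes spindle poles apart, was at 29.5 and 35.4 FPKM in knockdown and 40.8 and 41.2 FPKM in scramble libraries. The hairpins thus took opposite orders for KIF20A and KIF11. KIF18A, which dampens chromosome oscillations, was at 28.96 and 28.89 FPKM in knockdown and 34.2 and 35.5 FPKM in scramble libraries. KIF23, the motor of centralspindlin, was at 54.8 and 60.6 FPKM in knockdown and 69.3 and 71.3 FPKM in scramble libraries. KIFC1, a motor that focuses spindle poles, was at 42.4 and 46.3 FPKM in knockdown and 57.1 and 56.2 FPKM in scramble libraries. For these 3 genes the hairpins were close together, at 78.3% to 82.9% of scramble on average.

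Centromere proteins mark the site where the kinetochore forms and build its inner layer. CENPH (ENSG00000153044), an inner kinetochore subunit, was at 21.4 and 21.9 FPKM in knockdown and 33.8 and 32.3 FPKM in scramble libraries (log2 change -0.59 ± 0.09, SE, limma, adjusted p = 0.0531). It passed when genes below a mean of 5 FPKM were left out (adjusted p = 0.0456) and among protein-coding genes alone (0.0439; limma). CENPH moved further from the threshold with the values rescaled to a common sum (adjusted p = 0.0842) and without the mean trend (0.08; limma). CENPE, a kinetochore motor, was at 17.6 and 15.8 FPKM in knockdown and 23.9 and 23.6 FPKM in scramble libraries (limma, adjusted p = 0.0819). CENPF, a large kinetochore and microtubule protein, was at 53.05 and 56.9 FPKM in knockdown and 69.8 and 69.1 FPKM in scramble libraries (limma, adjusted p = 0.114). No knockdown value reached a scramble value for these genes, as for 30.8% of all genes. CENPA, the histone H3 variant that defines the centromere, was at 31.6 and 23.4 FPKM in knockdown and 36.2 and 39.1 FPKM in scramble libraries. CENPK, a partner of CENPH, was at 69.9% of its scramble mean with hairpin 1 and 91.5% with hairpin 7. CENPM, another inner subunit, was at 20.6 and 16.9 FPKM in knockdown and 22.4 and 25.5 FPKM in scramble libraries. None of these 3 passed.
The NDC80 complex is the main microtubule coupler of the outer kinetochore and is built from 4 subunits, and the pattern was not the same for each. NDC80 was at 32.6 and 31.8 FPKM in knockdown and 42.9 and 45.1 FPKM in scramble libraries, and its partner in the microtubule-binding dimer, NUF2, at 38.9 and 35.5 FPKM in knockdown, against 52.4 and 50.4 FPKM in scramble libraries. SPC25 was at 40.4 FPKM with hairpin 1 and 50.9 FPKM with hairpin 7, against 49.0 and 51.3 FPKM in the scramble libraries. SPC24 was at 14.9 FPKM with hairpin 1 and 19.8 FPKM with hairpin 7, against 16.02 and 17.5 FPKM in the scramble libraries. NDC80 and NUF2 were lower with both hairpins, while the groups overlapped for SPC24 and SPC25, which form the dimer that anchors the complex to the kinetochore. The log2 changes were -0.44 ± 0.09 for NDC80, -0.46 ± 0.10 for NUF2, -0.14 ± 0.14 for SPC25 and 0.03 ± 0.16 for SPC24 (SE), with adjusted p of 0.0782, 0.0819, 0.541 and 0.916 (limma). Whether the subunits differ from each other was not tested.

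Spindle-associated proteins bundle and nucleate microtubules. All 8 in the list were lower than both scramble libraries with both hairpins, beside 30.8% of all genes. NUSAP1, which binds spindle microtubules near chromosomes, was at 96.0 and 85.0 FPKM in knockdown and 138 and 135 FPKM in scramble libraries (log2 change -0.60 ± 0.10, SE, limma, adjusted p = 0.0614). HMMR, a spindle pole protein also known as a hyaluronan receptor, was at 13.8 and 13.1 FPKM in knockdown and 17.8 and 17.8 FPKM in scramble libraries (limma, adjusted p = 0.105). TPX2, the activator of Aurora A, was at 148 and 135 FPKM in knockdown and 183 and 184 FPKM in scramble libraries (limma, adjusted p = 0.105). The 8 genes stood between 66.1% and 82.8% of scramble, with NUSAP1 the lowest and PRC1, which bundles midzone microtubules, the highest. CKAP2L, a spindle pole protein, was at 28.9 and 36.8 FPKM in knockdown and 46.3 and 45.1 FPKM in scramble libraries. DLGAP5, which stabilises kinetochore fibres, was at 37.1 and 29.2 FPKM in knockdown and 43.5 and 42.3 FPKM in scramble libraries. ASPM, which focuses spindle poles, was at 34.2 and 31.6 FPKM in knockdown and 42.1 and 42.2 FPKM in scramble libraries. The hairpins were close for ASPM and in opposite orders for CKAP2L and DLGAP5. CKAP2, a relative of CKAP2L, was at 51.2 and 49.4 FPKM in knockdown and 61.5 and 64.7 FPKM in scramble libraries. The 3 genes placed under cytokinesis had a median log2 change of -0.15, nearest to 0 of the roles. This depends on the grouping, since KIF14 (-0.68), KIF20A (-0.52) and KIF23 (-0.28), which also serve cytokinesis, were placed under kinesins. ECT2, the exchange factor that switches on RhoA at the cleavage site, was at 44.8 and 43.6 FPKM in knockdown and 48.3 and 50.3 FPKM in scramble libraries (limma, adjusted p = 0.331). RACGAP1, its partner at the midzone, was at 73.1 and 71.5 FPKM in knockdown and 79.9 and 75.3 FPKM in scramble libraries (limma, adjusted p = 0.514). ANLN, the scaffold of the contractile ring, was at 151 FPKM with hairpin 1 and 236 FPKM with hairpin 7, against 207 and 214 FPKM in the scramble libraries (limma, adjusted p = 0.686). For ECT2 and RACGAP1 the knockdown values were lower without overlap, as for 30.8% of all genes, at 89.6% and 93.1% of the scramble mean. For ANLN the groups overlapped. None of the 3 reached an unadjusted p under 0.05.

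TOP2A, MKI67 and FOXM1 act on chromosomes and on transcription. TOP2A, the topoisomerase that untangles sister chromatids, was at 113 and 108 FPKM in knockdown and 145 and 145 FPKM in scramble libraries (log2 change -0.38 ± 0.09, SE, limma, adjusted p = 0.091). MKI67, which encodes the proliferation marker Ki-67, was at 32.9 FPKM with hairpin 1 and 50.4 FPKM with hairpin 7, against 63.8 and 63.5 FPKM in the scramble libraries (log2 change -0.63 ± 0.21, SE, limma, adjusted p = 0.153). FOXM1, the transcription factor that activates many genes of the list, was at 39.9 FPKM with hairpin 1 and 55.6 FPKM with hairpin 7, against 51.05 and 49.05 FPKM in the scramble libraries (log2 change -0.09 ± 0.17, SE, limma, adjusted p = 0.788). FOXM1 was below scramble with hairpin 1 and above it with hairpin 7, while MKI67 and TOP2A were below it with both.

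The hairpins differed in which mitotic genes were lowest. The hairpin 1 library lay below both scramble libraries for 55 of 55 genes, beside 42.6% of all genes tested, and the hairpin 7 library for 51 of 55, beside 47% of all genes. Median log2 changes of the list were -0.35 under hairpin 1 and -0.42 under hairpin 7. These values were not rescaled, and summed FPKM was 749446 in the hairpin 1 library and 682076 in the hairpin 7 library. As a share of the FPKM of rows with a gene identifier, the summed list took the other order, at 0.456% and 0.482%. The hairpin comparisons here were not repeated on rescaled values. The SD of hairpin 1 minus hairpin 7 was 0.31 over the list and 0.45 over all genes. A bound of 0.2 on that difference, chosen after the values were seen, placed 30 genes as alike in both libraries, 11 lower with hairpin 1 and 14 lower with hairpin 7. The genes lower with hairpin 7 were CDC20, PTTG1, KIF20A, PLK1, CCNB1, CENPA, BUB3, DLGAP5, CDC25C, AURKA, BUB1, CENPM, CCNB2 and PRC1. CDC20 was at 78.7% of scramble with hairpin 1 and 48.4% with hairpin 7, and KIF20A at 85.4% and 55.9% in the same order. The genes lower with hairpin 1 were CDK1, ANLN, MKI67, FOXM1, SPC24, CENPK, CKAP2L, SPC25, AURKB, KIF11 and PLK4. CDK1 was at 50.9% of scramble with hairpin 1 and 87.1% with hairpin 7, and MKI67 at 51.7% and 79.2%. In the DNA replication list hairpin 7 gave the lower value for 9 of 49 genes, against 37 of the 55 mitotic genes and 53.9% of all genes. That list had medians of -0.47 with hairpin 1 and -0.25 with hairpin 7. The order of the 55 did not hold in all lists of the same machinery described below. Hairpin 7 was the lower for 13 of 41 other kinetochore and centromere genes (31.7%) and 21 of 49 other spindle and cytokinesis genes (42.9%). In the anaphase-promoting complex it was the lower for 12 of 18 genes (66.7%). Each hairpin is 1 library and both share the scramble libraries, so whether these differences would repeat was not tested.

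**Figure D5:**
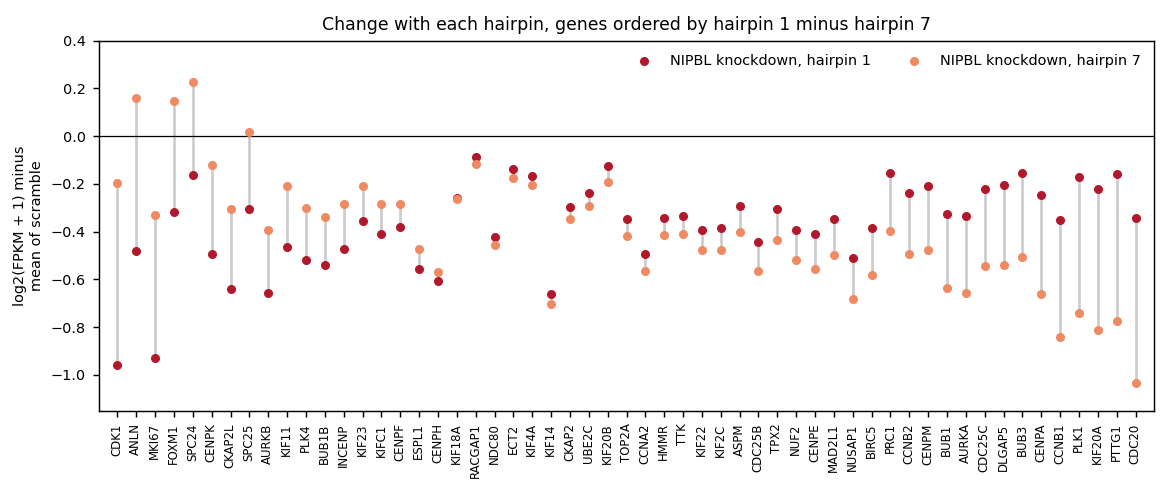
Log2(FPKM + 1) minus the scramble mean (y axis) for each of the 55 genes (x axis), with hairpin 1 and hairpin 7 as 2 dots joined by a line, ordered by hairpin 1 minus hairpin 7. CDK1, ANLN and MKI67 stand at the left end with hairpin 1 lowest, and PTTG1 and CDC20 at the right end with hairpin 7 lowest.

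Genes of the same machinery outside the list were held in 6 further lists, which share no gene with the 55. Their counts stand beside the shares over all genes tested, of which 1.11% fell, 1.45% rose and 51.7% had a negative log2 change, while an unadjusted p under 0.05 was reached by 12.8% as lower and 13.6% as higher. Of 41 other kinetochore and centromere genes 1 fell and 0 rose, and by unadjusted p 14 (34.1%) were lower and 0 higher (limma). Of these 41 genes 34 (82.9%) had a negative log2 change, and the median was -0.23. The gene that fell was CENPV, a centromere and microtubule protein, at 13.5 and 13.2 FPKM in knockdown and 42.6 and 40.1 FPKM in scramble libraries (log2 change -1.56 ± 0.10, SE, limma, adjusted p = 0.0112). The CENPA chaperone gene HJURP had a log2 change of -0.50, the passenger complex gene CDCA8 of -0.66 and OIP5, which helps load CENPA, of -0.40, and none of the 3 passed. Of 49 other spindle and cytokinesis genes 0 passed (limma, with 23, or 46.9%, lower and 0 higher by unadjusted p under 0.05), with 43 (87.8%) negative and a median of -0.32. The kinase gene NEK2 was at 46.4 and 47.5 FPKM in knockdown and 66.9 and 67.2 FPKM in scramble libraries (limma, adjusted p = 0.0608). ARHGAP11A, which regulates RhoA, had a log2 change of -0.52, the spindle crosslinker gene TACC3 of -0.46 and HAUS7, a subunit of the augmin complex, of -0.63. The anaphase-promoting complex, whose subunits are present throughout the cycle, had 18 genes with a median of -0.12, and 0 passed (limma, with 2 lower and 0 higher by unadjusted p under 0.05). The 2 lower genes are 11.1% of that complex, near the 12.8% of all genes. ANAPC1 had the smallest p of them, with a log2 change of -0.51, followed by ANAPC11 at -0.27, ANAPC7 at -0.25 and CDC23 at -0.22.

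Among 19 further kinases and regulators of mitotic entry 0 passed (limma, with 5, or 26.3%, lower and 1, or 5.26%, higher by unadjusted p under 0.05), beside 12.8% and 13.6% of all genes, and the median was -0.09. WEE1, the kinase that keeps CDK1 inactive, was at 39.4 and 44.0 FPKM in knockdown and 26.1 and 26.4 FPKM in scramble libraries (log2 change 0.64 ± 0.10, SE, limma, adjusted p = 0.0531). Both knockdown values of WEE1 lay above both scramble values. CDC25A, the phosphatase that opposes WEE1 earlier in the cycle, had a log2 change of -0.60, the F-box cyclin gene CCNF of -0.52 and the haspin gene, GSG2, of -0.64, and none passed. Of 17 genes of the DREAM and MuvB complexes and of NF-Y 0 passed (limma, with 3, or 17.6%, lower and 1, or 5.88%, higher by unadjusted p under 0.05), with a median of -0.15. The share of lower genes in that list was near the 12.8% of all genes. TFDP2, which encodes a partner of E2F factors, had a log2 change of -0.46 and the MuvB gene RBBP4 of -0.25. Of the NF-Y subunit genes, NFYC at 0.33 and NFYB at -0.34 were among the 4 smallest p of that list, and neither passed. The 49 DNA replication genes had a median of -0.37, with 46 (93.9%) negative, beside 51.7% of all genes. By unadjusted p under 0.05, 25 (51%) of them were lower and 0 higher (limma), beside 12.8% and 13.6% of all genes. The 2 that fell were the helicase subunit genes MCM6 (-0.68, limma, adjusted p = 0.0409) and MCM3 (-0.58, adjusted p = 0.0493). RFC4 and RFC5, subunits of the clamp loader, stood at -0.68 and -0.52 without passing. The calls of CENPV, MCM6 and MCM3 rest on both scramble libraries, since 0 genes of the whole table passed without either of them (limma). The medians of these lists are descriptions, and their differences were not tested.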

How the data were processed

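RNA sequencing values of 2 NIPBL knockdown and 2 scramble NUGC3 libraries were used. The deposited values are FPKM per gene with 2 decimals, made by the authors. Per the submitters' processing notes, STAR and RSEM were used, with no version. The genome build, annotation and strand setting were not given in the sources used here. RSEM splits reads among similar genes, so KIF4A and PTTG1, which have near copies, are uncertain, as are overlapping genes. The same holds for CDC20, AURKA and UBE2C, which have pseudogenes listed at no more than 0.55 FPKM. With 2 decimals, low FPKM values cannot show whether they rise in steps of whole reads.

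Rows with an Ensembl identifier and a mean of at least 1 FPKM entered, 12834 in all. The pseudocount was 1 FPKM. Log2 values went into limma 3.58.1 (R 4.3.3; lmFit and trended eBayes; 2 residual and 2.87 prior degrees of freedom). The test was two-sided, with Benjamini-Hochberg adjustment across the 12834 genes and a threshold of 0.05. Other rows held 8.47% to 9.27% of the FPKM of a library. Replicate numbers follow sample order and pair nothing. On simulated data for this comparison (12834 genes, 200 changed, 10 simulations) the test called 3.43% of 1.5-fold, 51.0% of 2-fold and 95.9% of 4-fold changes, with a mean of 5.6 false calls.

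The genes and lists were chosen with earlier results of these data known. Genes were named by role, with up to 3 of the smallest p per role, every gene called or of opposite sign, and up to 4 of each further list. Other genes of the 55 were named after their values were seen. Gene coordinates are from GENCODE 29 and promoters from RefSeq, GRCh38.p14. Alternatives changed the pseudocount, filter, scaling, trend, gene set and libraries used.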

Additional observations from a re-analysis of the deposited data

How the results depend on the processing

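The test called 328 genes in all and 1 of the 55 mitotic genes, and these counts depended on the processing. All genes and mitotic genes called were 2574 and 18 with no filter on low values, where most residual variances were 0 and limma is unreliable. With genes below a mean of 5 FPKM left out, 2 mitotic genes were called, beside 368 of all 9588 genes tested. Among protein-coding genes 2 were called, beside 464 of all 11514 tested. Rescaling to a common sum gave 205 of 13600 genes in all and 0 mitotic genes (33 lower at an unadjusted p under 0.05). Shares of all genes at an unadjusted p were not computed for the alternatives. In all, 242 of 12834 genes were called without a mean trend. The fit without a mean trend gave 0 mitotic genes (32 lower at an unadjusted p under 0.05), and averaging the scramble libraries gave 0 in all and 0 mitotic genes (4 lower at an unadjusted p under 0.05; limma). With 1 library left out, the counts ran from 0 to 4532 in all and from 0 to 45 for mitotic genes. The negative log2 changes numbered 51 to 55 of 55 and their median lay between -0.42 and -0.35 under all 14 alternatives. The sign turned for SPC24, which ran from -0.16 without hairpin 7 to 0.23 without hairpin 1 and stood at -0.03 without scramble 1. It turned without hairpin 1 for SPC25 (0.02, against -0.31 without hairpin 7), ANLN (0.16, against -0.48 without hairpin 7) and FOXM1 (0.15, against -0.32 without hairpin 7). The call of NIPBL was lost after rescaling (adjusted p = 0.0504), with the scramble libraries averaged (0.267), without scramble 1 (0.257) and without scramble 2 (0.261), while its log2 change stayed between -1.57 and -1.27 (limma). The cause of these shifts was not tested. No paired analysis was possible because the replicate numbers were given in sample order and pair no libraries. The depth behind each FPKM is unknown, so counting error could not be given.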

Other observations

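Median log2 changes of the mitotic genes were negative with and without CHR letters in the promoter. Only TTTGAA and TTCGAA were searched, so a gene without a match may still hold a CHR of other letters. The 33 genes with a match in the promoter window had a median log2 change of -0.38 and ranged from -0.69 to -0.14. The 12 genes with a window and no match to the CHR letters as searched had a median of -0.48 and ranged from -0.60 to 0.03. The 28 genes with both a CHR match and a CCAAT box had a median of -0.38, and the 5 with neither match had a median of -0.43. The difference between these medians was not tested.

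The 55 genes lie on 20 chromosomes, with at most 7 on 1 chromosome. CCNB1 and CENPH lie close together on chromosome 5 in GENCODE 29, at chr5:69167010-69178245 and chr5:69189548-69210357. CENPH was at 64.6% of scramble with hairpin 1 and 66.4% with hairpin 7, while CCNB1 was at 78.4% with hairpin 1 and 55.5% with hairpin 7.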
